A study of Mus musculus with 9 samples.

Results

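The mRNAs of Rida, Cyb5r3, Ttpa, Ceacam1, Tmem220 and Cnbp were recovered with an antibody against HuR from mouse liver at levels far above those in control pull-downs. These 6 genes, of 33732 gene names listed and 5510 genes tested, were picked for large and steady values in HuR RIP over IgG RIP and over Input. RIP, RNA immunoprecipitation, pulls a protein down together with the RNA it holds, here without crosslinking. Whole healthy liver of wild-type C57BL/6 mice aged 8 weeks gave 3 HuR RIP libraries, 3 IgG RIP libraries and 3 Input libraries of the lysate. Each pull-down took the lysate of 1 liver, and nothing in the labels says whether HuR RIP and IgG RIP of the same number shared a liver. Input was used as the deposited mean of its libraries, a single value per exon with no replicate spread. Since the values in these same libraries chose the genes, their levels in HuR RIP against IgG RIP and Input are given as a description, without a test.

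HuR, the product of Elavl1, is a ubiquitous RNA-binding protein that carries RNA recognition motifs and shuttles between nucleus and cytoplasm. It is known to bind U-rich and AU-rich stretches, most often in 3′ UTRs and introns, and to stabilise many of the mRNAs it binds or to change their translation. Rida encodes an enzyme that hydrolyses reactive enamines and imines released by pyridoxal phosphate enzymes. Cyb5r3 encodes NADH-cytochrome b5 reductase, which passes electrons to cytochrome b5 for fatty acid desaturation and sterol synthesis. Ttpa encodes the alpha-tocopherol transfer protein, through which the liver retains vitamin E. Ceacam1 encodes a cell adhesion receptor that takes part in hepatic insulin clearance. Tmem220 encodes a multipass membrane protein. Cnbp encodes a protein with CCHC zinc knuckles that binds single-stranded nucleic acid.

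Library sizes behind the values were 26.3 to 26.9 M reads in HuR RIP and 15.9 to 28.8 M reads in IgG RIP (M, mega). The Input depth is unknown. Reads are not independent molecules, so read counts and their intervals cover counting error only. Summed hepatocyte markers reached 819 to 875 RPKM (reads per kilobase of exon and per M reads of the library) in HuR RIP, 266 to 693 RPKM in IgG RIP and 698 RPKM in Input. All 7 of those markers were above 0. Summed blood cell markers reached 66.8 to 171 RPKM in HuR RIP, 98.7 to 233 RPKM in IgG RIP and 68.2 RPKM in Input. The 5 cholangiocyte markers summed to 3.78 to 13.1 RPKM in HuR RIP, against 0.0343 to 0.662 RPKM in IgG RIP and 0.448 RPKM in Input, so they moved in the direction of the 6 genes without overlap. Spp1 was the highest of them in each HuR library, at 10.1, 1.48 and 6.68 RPKM in HuR RIP, against 0, 0.575 and 0 RPKM in IgG RIP, while Krt19 was at 0 in HuR RIP 2 and Epcam at 0 in HuR RIP 1 and 3. Summed Kupffer cell, endothelial and stellate cell markers overlapped between HuR RIP and IgG RIP. The part of these other cells in the results was not tested. In lysate of a whole organ, fewer cells of a type and less RNA per cell cannot be told apart. The columns also carry the letters M and F, whose meaning is not given in the sources used here. HuR RIP 2, headed M, had the highest level of Xist (10.2 RPKM), the RNA expressed from the inactive X chromosome. HuR RIP 3, headed F, had 0.463 RPKM of Xist and 2.04 RPKM of the Y-linked gene Ddx3y. Read as male and female, the letters would be at odds with these genes in both libraries. As both are HuR RIP, an exchange of the pair would leave the unpaired contrast with IgG RIP as it is. It would change fits and correlations that match libraries by number.

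The metabolic enzyme genes were the highest. Cyb5r3 (chromosome 15, 83153494 to 83172592, minus strand, GRCm38/mm10) was at 81.0, 59.3 and 79.5 RPKM in HuR RIP 1, 2 and 3, against 5.51, 2.81 and 14.6 RPKM in IgG RIP 1, 2 and 3 and 3.03 RPKM in Input. IgG RIP 3 stood above the other IgG libraries, and the lowest HuR value was still 4.05 times the highest IgG value. Rida (chromosome 15, 34484021 to 34495255, minus strand) was at 20.5, 18.2 and 21.4 RPKM in HuR RIP, against 1.32, 0.364 and 0.109 RPKM in IgG RIP and 0.811 RPKM in Input. It had the widest gap of the 6, with the lowest HuR value at 13.8 times the highest IgG value, and the smallest spread in HuR RIP (coefficient of variation 8.19%).

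Ttpa (chromosome 4, 20007938 to 20030785, plus strand), the vitamin E carrier, was at 11.8, 10.1 and 10.05 RPKM in HuR RIP, against 1.88, 0.620 and 0.0221 RPKM in IgG RIP and 1.21 RPKM in Input. The HuR libraries lay close together, while the IgG libraries spanned 85.0 times from lowest to highest. Cnbp (chromosome 6, 87842615 to 87851106, minus strand), the zinc knuckle gene, was at 11.8, 13.8 and 14.7 RPKM in HuR RIP, against 2.70, 0.852 and 0.0110 RPKM in IgG RIP and 1.251 RPKM in Input. For both genes IgG RIP 1 was the highest control and lay above Input, and IgG RIP 3 was near 0.

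The membrane protein genes were the lowest of the set and the least alike between HuR libraries. Ceacam1 (chromosome 7, 25461707 to 25477603, minus strand) was at 7.94, 8.36 and 5.17 RPKM in HuR RIP, against 0.543, 0.278 and 0.0119 RPKM in IgG RIP and 0.465 RPKM in Input. Tmem220 (chromosome 11, 67025154 to 67035312, plus strand) was at 13.8, 5.36 and 2.998 RPKM in HuR RIP, against 0.4998, 0.0270 and 0.0250 RPKM in IgG RIP and 0.130 RPKM in Input. Its HuR values spread 4.596 times from lowest to highest, with HuR RIP 1 far above the others, so "steady" holds for Tmem220 less than for the rest. Without HuR RIP 1 its mean was 4.18 RPKM. In mean HuR level the order was Cyb5r3 (73.3 ± 12.1 RPKM), Rida (20.0 ± 1.64 RPKM), Cnbp (13.4 ± 1.51 RPKM), Ttpa (10.6 ± 1.02 RPKM), Tmem220 (7.38 ± 5.67 RPKM) and Ceacam1 (7.16 ± 1.74 RPKM; SD, n = 3 each). Tmem220 overlapped Cnbp, Ttpa and Ceacam1 in range, and the ranges of Cnbp and Ttpa met near 11.8 RPKM.

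**Figure D1:**
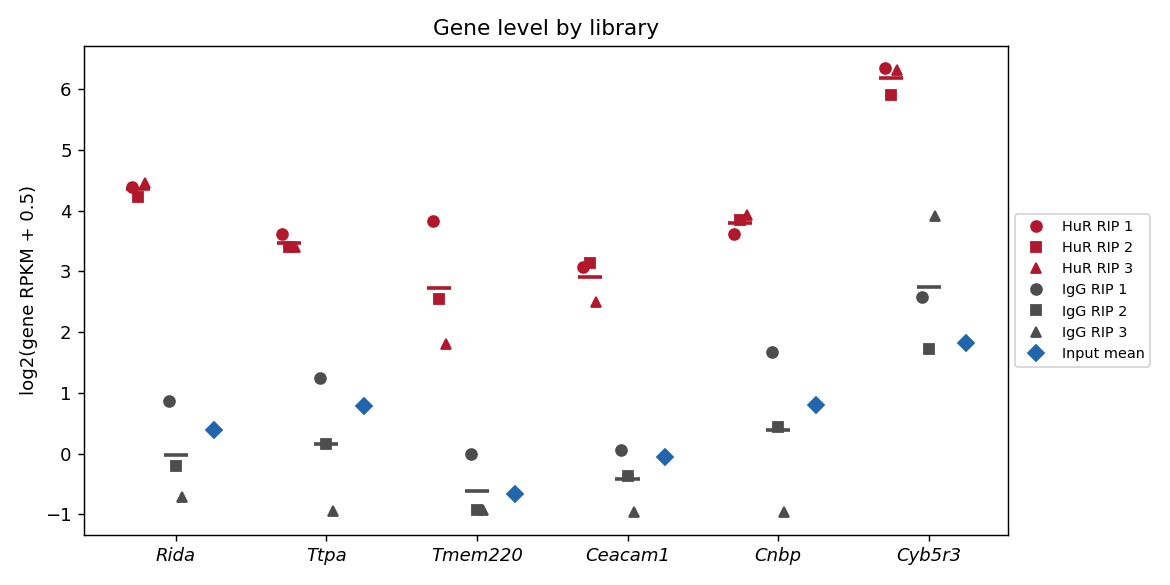
Gene level on the log2(RPKM + 0.5) scale for the 6 genes in each HuR RIP library (red), each IgG RIP library (grey) and the Input mean (blue); horizontal lines are the means of 3 libraries. Every HuR RIP library lies above every IgG RIP library and above Input, and Tmem220 shows the widest spread in HuR RIP.

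On the log2(RPKM + 0.5) scale, which understates changes of low genes, HuR RIP exceeded IgG RIP by 4.38 for Rida (SE 0.80), 3.45 for Cyb5r3 (SE 0.99) and 3.41 for Cnbp (SE 0.83). The difference was 3.35 for Tmem220 (SE 0.77), 3.33 for Ceacam1 (SE 0.75) and 3.31 for Ttpa (SE 0.80). All tested genes together had a median difference of 0.92, so the 6 lay 2.39 (Ttpa) to 3.46 (Rida) above that shift. The median of all genes depended on the filter on low values: it was 0.093 without a filter and 1.07 with a filter at 1 RPKM. Leaving out 1 library moved the fold by over 1.5 times for Cnbp, to 2.74 without IgG RIP 3 and 4.06 without IgG RIP 1, and for Cyb5r3, to 4.03 without IgG RIP 3. Over the Input mean, HuR RIP was higher by 4.37 for Cyb5r3, 3.97 for Rida, 3.40 for Tmem220, 2.99 for Cnbp, 2.96 for Ceacam1 and 2.70 for Ttpa. IgG RIP differed from Input by -0.62 (Ttpa) to 0.92 (Cyb5r3) on the same scale.

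In the fit across all genes, 5 of the 6 were among those called higher in HuR RIP, all but Cyb5r3, against 0.672% of genes tested (0.127% were called lower). All 6 had every HuR library above every IgG library, against 31.3% of genes tested. The genes were picked on this contrast, so neither count is evidence about them. The number called changed with the settings and the libraries: it was 0 with the replicate block and 0 without a filter on low values, 1 with a pseudocount of 1 and 1 with libraries centred at their medians. It was 1, 5 and 3 without HuR RIP 1, 2 and 3, and 6, 0 and 3 without IgG RIP 1, 2 and 3.

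Along the genes, nearly all of the HuR RIP signal lay in the last exon. Overlapping listed exons were merged into blocks, and each block's share of the gene's reads in listed exons was taken. The last block held a mean of 96.1% (Rida), 98.4% (Cyb5r3), 97.7% (Ttpa), 99.2% (Ceacam1), 100% (Tmem220) and 95.4% (Cnbp) of the gene's signal over the 3 HuR libraries. In Input the same blocks held 62.9% (Rida), 61.9% (Cyb5r3), 62.3% (Ttpa), 59.0% (Ceacam1), 53.3% (Tmem220) and 41.8% (Cnbp). Tmem220 was at only 0.130 RPKM in Input, so its Input share may rest on few reads. For Cyb5r3 and Ceacam1 the last block is the smaller part of the listed exon length, 29.1% and 37.8%, while for Rida, Ttpa, Tmem220 and Cnbp it makes up 83.3%, 75.5%, 86.7% and 50.8%.

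The ratio of mean HuR RIP to mean IgG RIP was larger in the last exon block than over the whole gene for all 6. For Cyb5r3, the reductase gene, the last block was at 278, 196 and 271 RPKM in HuR RIP, against 15.4, 7.39 and 45.9 RPKM in IgG RIP and 6.45 RPKM in Input. The 1229 bases of that exon took 9086, 6338 and 8978 reads in HuR RIP, more than any other exon block of the 6 genes. Rida's last block was at 21.9, 21.8 and 25.5 RPKM in HuR RIP, against 1.23, 0.437 and 0.104 RPKM in IgG RIP and 0.612 RPKM in Input. Ttpa's was at 14.8, 13.3 and 13.1 RPKM in HuR RIP, against 2.17, 0.394 and 0.0293 RPKM in IgG RIP and 1.002 RPKM in Input. In each of these 3 exons every HuR library was well clear of IgG RIP and of Input, with HuR RIP 2 the lowest for Cyb5r3.

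For Ceacam1, the adhesion receptor gene, the last block was at 20.9, 21.9 and 13.6 RPKM in HuR RIP, against 0.864, 0.359 and 0.0316 RPKM in IgG RIP and 0.727 RPKM in Input. For Cnbp it was at 22.3, 27.3 and 26.0 RPKM in HuR RIP, against 2.82, 0.705 and 0 RPKM in IgG RIP and 1.03 RPKM in Input. Tmem220's was at 15.9, 6.18 and 3.46 RPKM in HuR RIP, against 0.576, 0 and 0.0288 RPKM in IgG RIP and 0.0799 RPKM in Input. Here too HuR RIP 1 was the highest library for Tmem220, and the groups did not overlap in any of these exons.

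Upstream of the last block, HuR RIP was not above Input for most libraries. The combined upstream exons lay below Input in 14 of the 18 pairs of gene and HuR library. The share of such pairs over all genes was not counted. In tested genes with 3 or more exon blocks, the median log2 difference from Input upstream was 0.25. Tmem220 gave 3 of the 14 pairs, with an Input of 0.458 RPKM over 184 bases, a level at which few reads would be found. Rida's upstream exons were at 13.7, 0.143 and 0.697 RPKM in HuR RIP, against 1.77, 0 and 0.130 RPKM in IgG RIP and 1.80 RPKM in Input. The high value of HuR RIP 1 came from a single exon (chr15:34489632-34489800), which had 194 reads there, 2 and 10 reads in HuR RIP 2 and 3, and 15, 0 and 0 reads in IgG RIP. In the other HuR libraries Rida's upstream exons lay below Input. In the 184 listed bases upstream of its last exon Tmem220 had 0 reads in every HuR library. Of its 509, 196 and 112 listed reads, that allows a share of up to 0.589%, 1.53% and 2.68%. Only 4 of the gene's 8 annotated exons are listed, so its shares cover those alone.

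Ceacam1's upstream exons, 3612 bases that hold most of the coding sequence, were at 0.0620, 0.158 and 0.0620 RPKM in HuR RIP, against 0.348, 0.229 and 0 RPKM in IgG RIP and 0.306 RPKM in Input. Those of Cyb5r3 were at 0.263, 3.21 and 0.769 RPKM in HuR RIP, against 1.43, 0.927 and 1.83 RPKM in IgG RIP and 1.63 RPKM in Input. In these exons, unlike the last one, the ranges of HuR RIP and IgG RIP overlapped. Ttpa's upstream exons were at 2.64, 0.0493 and 0.579 RPKM in HuR RIP, against 0.983, 1.32 and 0 RPKM in IgG RIP and 1.87 RPKM in Input. Cnbp's were at 0.855, 0 and 3.01 RPKM in HuR RIP, against 2.58, 1.004 and 0.0223 RPKM in IgG RIP and 1.48 RPKM in Input. On the log2(RPKM + 0.5) scale the upstream exons differed from Input by -0.05 (Rida), -0.47 (Cyb5r3), -0.95 (Ttpa), -0.44 (Ceacam1), -0.94 (Tmem220) and -0.57 (Cnbp). With 1 HuR library left out this difference turned positive for Rida (0.84 without HuR RIP 2 and 0.39 without HuR RIP 3, but -1.39 without HuR RIP 1), Cnbp (0.14 without HuR RIP 2) and Cyb5r3 (0.03 without HuR RIP 1), and it was -1.62 for Ttpa without HuR RIP 1. It also moved to -1.27 for Cnbp without HuR RIP 3 and to -1.11 for Cyb5r3 without HuR RIP 2. The last block differed from Input by 4.402, 5.15, 3.24, 3.94, 3.71 and 4.06 for the same genes in the same order.

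**Figure D2:**
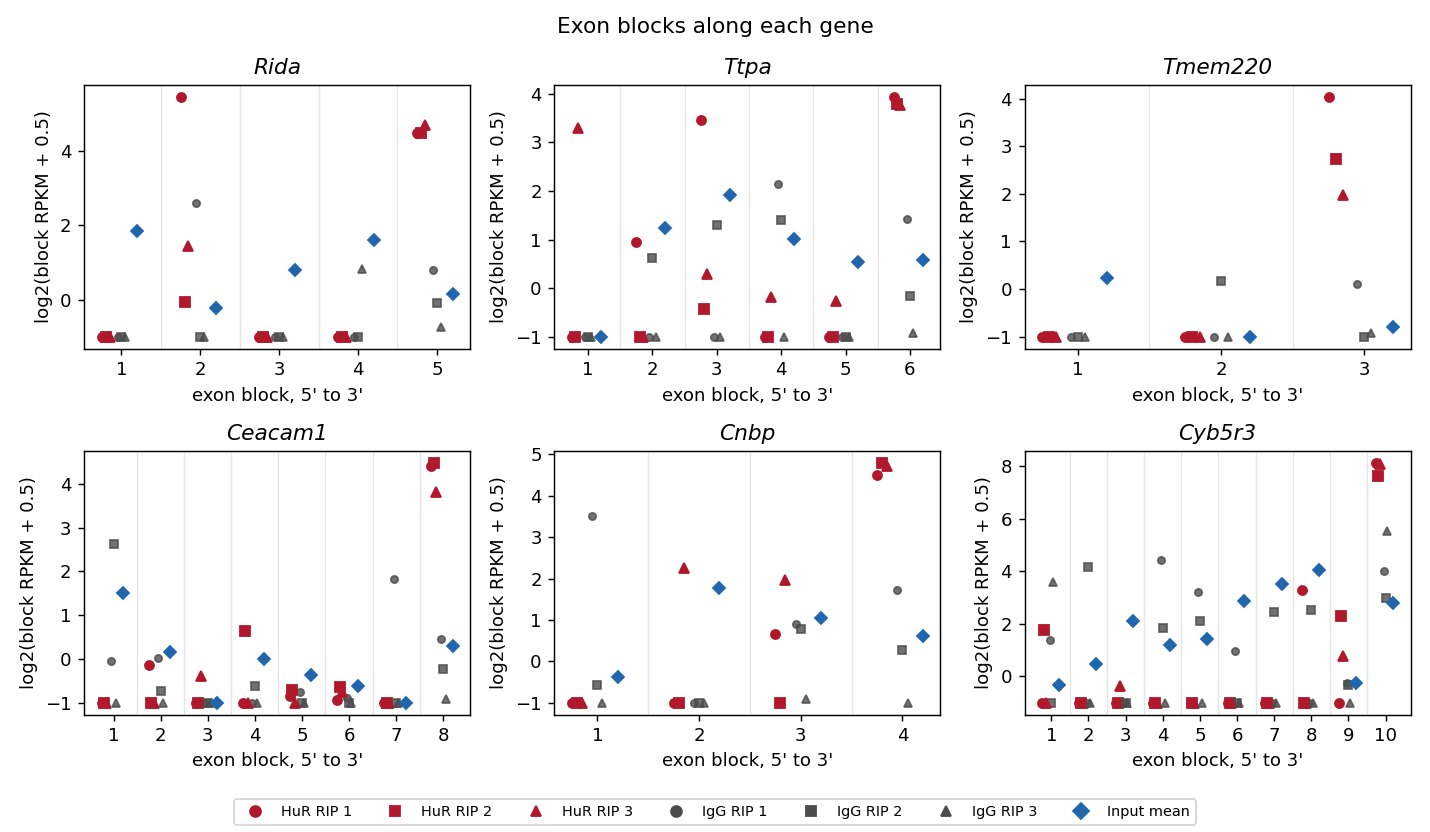
Level of each exon block, on the log2(RPKM + 0.5) scale, from the 5′ to the 3′ end of the 6 genes in HuR RIP (red), IgG RIP (grey) and the Input mean (blue). In every panel all 3 HuR RIP libraries exceed every IgG RIP library in the last block and in no other block, while Input is spread over most blocks.

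Counted exon by exon, the 6 genes have 82 distinct listed exons, 74 of them above 0 in at least 1 RIP library. Of these, 18 had every HuR library above every IgG library, against 5.9% of all exons above 0, and 17 of the 18 lay in a last block. The exception was an exon of Ceacam1. In all 3 HuR libraries 35 of the 82 exons were at 0, and 33 of those 35 were above 0 in Input. The same counts were not taken over all exons or in IgG RIP. Some of these exons, such as those of Rida's first block, were at 0 in every IgG library as well. Input is a mean of 3 libraries of unknown depth, above 0 wherever any of them has a read. Nested exons share reads, so these exons are not separate observations.

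The per-library shares differed somewhat between HuR libraries. The lowest were 88.9% for Rida in HuR RIP 1 (95% Wilson interval 87.3 to 90.3), 89.9% for Cnbp in HuR RIP 3 (95% Wilson interval 88.1 to 91.5) and 94.5% for Ttpa in HuR RIP 1 (95% Wilson interval 93.0 to 95.8). Every other share in HuR RIP was 96.2% or more. Shares in IgG RIP rest on few reads, as low as 1 for a gene in a library, and Cyb5r3 had the most, with 369, 316 and 1783 reads in IgG RIP 1, 2 and 3. Its last block held 99.8%, 96.2% and 99.3% of reads in HuR RIP, against 81.6%, 76.6% and 91.1% in IgG RIP. The 95% Wilson intervals of the lowest of these were 95.7 to 96.6 for HuR RIP 2 and 71.6 to 80.9 for IgG RIP 2.

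High last-exon shares were common in HuR RIP beyond these genes. Shares were taken in tested genes with 3 or more exon blocks. In the 3614 of them above 0 in every HuR library, the median was 86.2%, 68.2% and 86.6% in HuR RIP. The medians of 50.6%, 40.9% and 26.3% in IgG RIP cover genes above 0 in every IgG library. The 42.0% in Input covers genes above 0 in Input, so the gene sets differ. The last block reached 90% or more in all 3 HuR libraries in 19.7% of the 3614 genes and in 4 of the 6, all but Rida and Cnbp. It reached 80% or more in 28.6% of those genes and in all 6. By mean share the 6 lay above 79.8% (Cnbp) to 94.5% (Tmem220) of the genes. Across genes, the median log2 difference between HuR RIP and Input was 1.67 in the last block and 0.25 upstream.

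**Figure D3:**
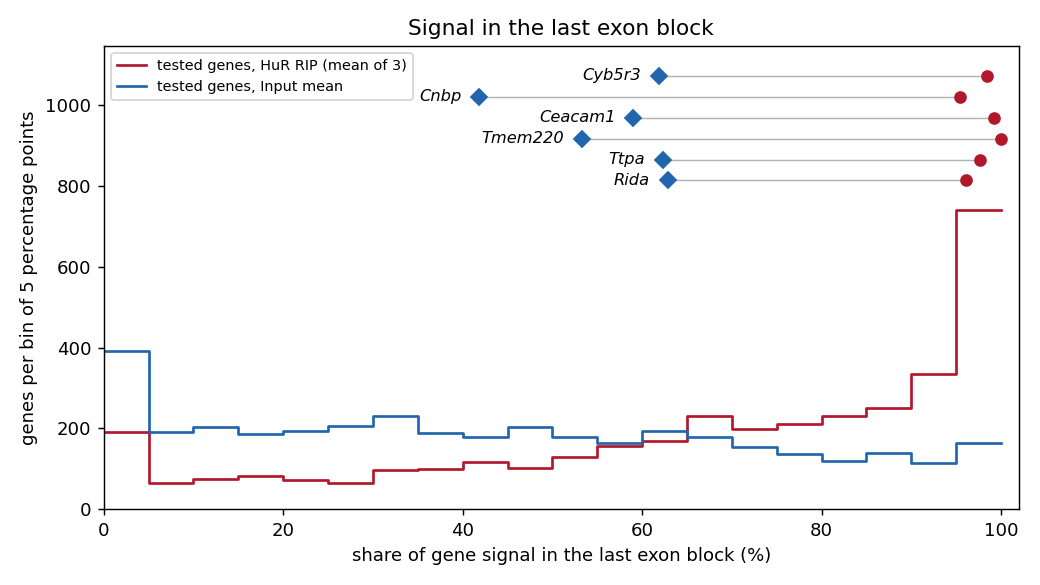
Distribution over tested genes of the share of gene signal in the last exon block, in bins of 5 percentage points, for the mean of the 3 HuR RIP libraries (red) and for the Input mean (blue). Above it, each of the 6 genes is shown by its HuR RIP mean (circle) and its Input value (diamond): the circles lie between 95.4% and 100% and the diamonds between 41.8% and 62.9%. The red curve covers genes above 0 in every HuR RIP library, and the blue curve genes above 0 in Input. The Input value of Tmem220 may rest on few reads.

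Annotated transcripts with different 3′ ends allowed the last block to be divided. Exons that start at the same place and end at successive sites share reads, and the reads of each added stretch were resolved from the listed values. A read across such a boundary is counted wholly to the shorter form. Levels of short first stretches may thus be raised and those of added stretches lowered. Rida's signal lay in its 515-base terminal exon, 57 bases of coding sequence with the stop codon and 458 bases of 3′ UTR, with 1543, 1476 and 1827 reads in HuR RIP, against 52, 31 and 8 reads in IgG RIP. The 2144 bases beyond it, which belong to a retained-intron transcript, had 52 and 0 reads in HuR RIP 2 and 3 and 0 reads in each IgG library. In HuR RIP 1 the terminal exon held 1543 of the block's 1547 reads. On this shorter exon Rida's level was 113, 109 and 132 RPKM in HuR RIP, against 6.37, 2.26 and 0.539 RPKM in IgG RIP and 2.60 RPKM in Input. The gene-level value given above is divided by a length that includes the retained-intron exon.

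In Ttpa the signal stopped at the nearer of its annotated ends. The 2063 bases up to that end had 936, 832 and 837 reads in HuR RIP, against 82, 25 and 2 reads in IgG RIP, and the 315 bases beyond it had 0, 0 and 2 reads in HuR RIP and 0 reads in each IgG library. In Cnbp it stopped at an end short of the last. The 805-base stretch up to 87843082 had 778, 830 and 933 reads in HuR RIP, against 37, 28 and 0 reads in IgG RIP. The 467 bases beyond it had 0, 43 and 0 reads in HuR RIP and 0 reads in each IgG library. Both genes therefore had little or no signal in the longest annotated 3′ UTR beyond those ends, HuR RIP 2 of Cnbp excepted.

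In Ceacam1 the signal peaked at the start of the last exon. Its first 208 bases, which hold the last coding bases of some transcripts and are untranslated in others, were at 129.5, 122 and 69.1 RPKM in HuR RIP, against 2.13, 3.25 and 0 RPKM in IgG RIP and 1.88 RPKM in Input. The following stretch of 364 bases was at 18.3, 23.0 and 10.9 RPKM in HuR RIP, and the 2 after it were at 2.73 to 14.8 RPKM. The first 208 of the block's 2194 bases held 717, 667 and 387 of its 1221, 1263 and 801 reads in HuR RIP. Tmem220 had reads up to both of its ends, but in unequal shares between libraries. The 682 bases up to the nearer end had 303, 169 and 54 reads in HuR RIP, against 7, 0 and 1 reads in IgG RIP. The 522 bases beyond it had 206, 27 and 58 reads in HuR RIP, against 4, 0 and 0 reads in IgG RIP.

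**Figure D4:**
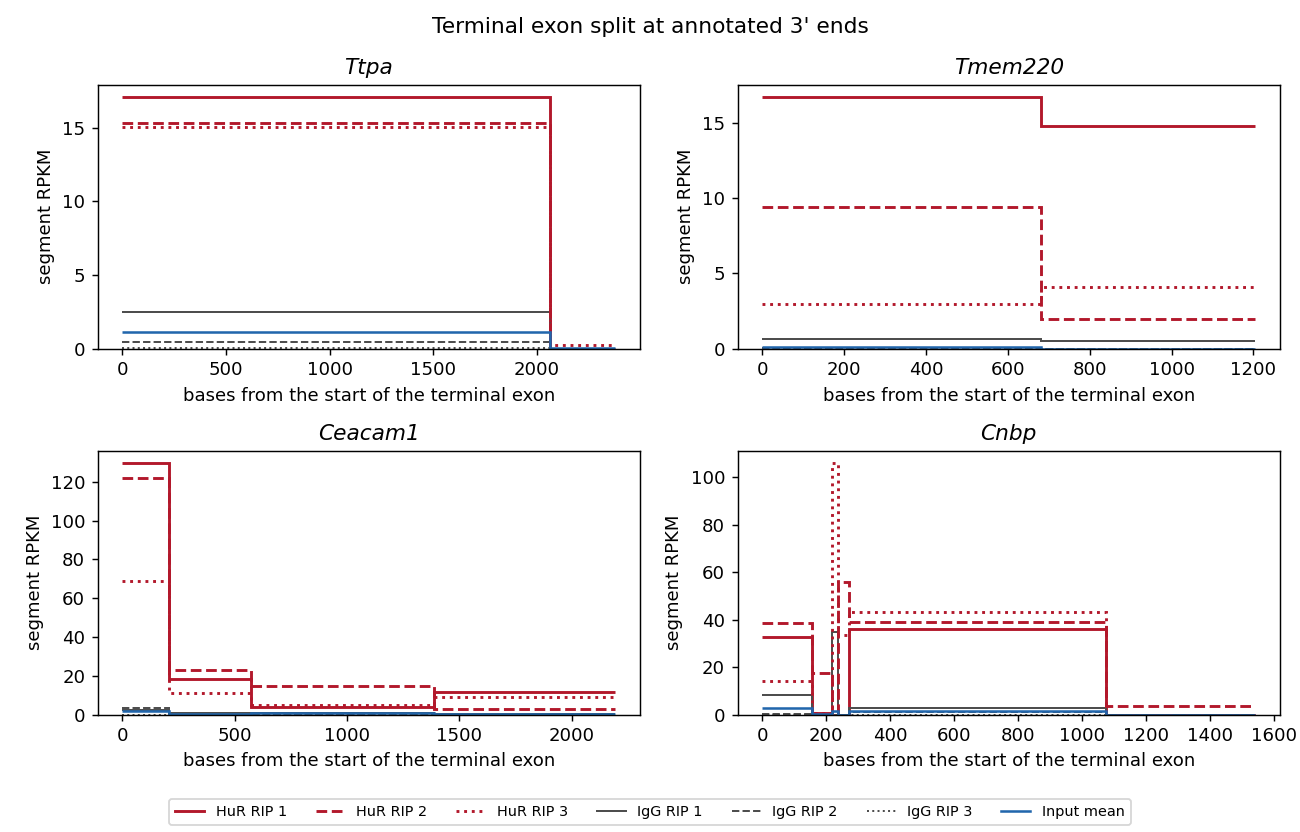
Level (RPKM) of successive stretches of the terminal exon, divided at annotated 3′ ends, against the distance in bases from the start of that exon, for HuR RIP (red), IgG RIP (grey) and the Input mean (blue). Ttpa drops to near 0 after 2063 bases, Ceacam1 is highest in its first 208 bases, and the short stretches of Cnbp between its first ends (20 to 61 bases) vary widely between HuR RIP libraries.

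Since HuR is known for U-rich and AU-rich sites, the stretch with the highest mean HuR RIP level in each gene was searched on the transcript strand for TTTTTTT, the mixed form TTTATTT, the pentamer ATTTA and its longer form TATTTAT, and its 30 bases with the most motif bases, then the most T, are shown. Capitals mark motif bases, and sequences are GENCODE M21 transcripts on GRCm38, 5′ to 3′, with T for U.
Rida (chr15:34484415-34484444, minus strand): ttttagaatgtctttcacactttaattttt
Cyb5r3 (chr15:83153533-83153562, minus strand): tcctgcacactggcttttttagtcATTTAt
Ttpa (chr4:20029467-20029496, plus strand): agaatattctgagtcccacgATTTAATTTA
Ceacam1 (chr7:25463716-25463745, minus strand): gtgatgcattcccggattctgttcctcact
Tmem220 (chr11:67034233-67034262, plus strand): acagtcATTTAaatgaacccaataatgttt
Cnbp (chr6:87843853-87843882, minus strand): tttctgcATTTAactacaaaaaaagtttat
The Tmem220 window spans the stop codon, and the others lie in 3′ UTR of at least 1 transcript. Rida's window has 17 T in 30 bases and Ceacam1's 11, both without a motif. The Ceacam1 stretch with over 100 RPKM in HuR RIP 1 and 2 holds 0 of the 4 motifs in 208 bases.

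Over the longest annotated 3′ UTR, Ttpa held the most matches. Its 2251 bases hold 7 copies of ATTTA, 2 of TTTATTT, 1 of TTTTTTT and 1 of TATTTAT, where 93.0%, 61.5%, 69.4% and 38.8% of 657 tested genes with a 3′ UTR of similar length (at least 0.8 times and at most the inverse of that) hold at least 1 of each. Of the same genes, 80.8% hold fewer copies of ATTTA. Matches may overlap, and each TATTTAT contains an ATTTA. The single TTTTTTT lies in the 315 bases beyond the nearer end, where HuR RIP had 0, 0 and 2 reads. Rida's 458 bases hold 0 of the 4 motifs, as do 46.6% of 378 genes of like length. Ceacam1 (2210 bases), Tmem220 (1068 bases) and Cnbp (1424 bases) hold 1 ATTTA each and 0 of the longer motifs. Among genes of like length, 13.6%, 33.8% and 24.3% hold 0 of the longer motifs.

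Cyb5r3's longest 3′ UTR (1484 bases, with 1 TATTTAT) belongs to an alternative last exon (chr15:83157064-83158925) that was at 0, 4.41 and 1.22 RPKM in HuR RIP, against 0.338, 0.302 and 0 RPKM in IgG RIP and 0.344 RPKM in Input. Its 1229-base terminal exon, the one with the highest level of all, holds 1 ATTTA and 19.3% T. The terminal exon stretches of Ttpa and Rida hold 32.3% and 30.5% T. Read on the opposite strand, the longest 3′ UTRs hold TTTTTTT once each in Ttpa and Cnbp and 0 times in Rida, Tmem220, Ceacam1 and Cyb5r3. On that strand ATTTA occurs 2 (Rida), 6 (Ttpa), 3 (Tmem220), 3 (Ceacam1), 4 (Cnbp) and 0 (Cyb5r3) times. TTTATTT occurs there 3 times in Ceacam1, 1 time each in Rida, Ttpa and Tmem220 and 0 times in Cnbp and Cyb5r3, and TATTTAT 1 time each in Ceacam1 and Cnbp. These matches are letters in a sequence and say nothing of binding at those places.

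Genes with near-identical sequence could share reads with a member. At 90% identity over 100 bases or more, the last exon of Ceacam1 matched Ceacam2, a close paralog, at 98.8% over 1630 bases, and the other 5 genes had 0 such matches in other genes. The match covers bases 566 to 2194 of the block. Only the longest match to each gene was kept, so shorter matches over the first 208 bases, which carry the peak, were not examined. Ceacam2 itself was at 4.18, 0.329 and 1.23 RPKM in HuR RIP, against 0.296, 0.0408 and 0.04998 RPKM in IgG RIP and 0.266 RPKM in Input. Values of Ceacam1 are uncertain to that extent, at least beyond base 566. On the opposite strand 4732471J01Rik overlaps Ceacam1 and Gm49463 overlaps the first exon of Cyb5r3. Whether strand was used in counting is not given in the sources used here, so reads of these pairs cannot be told apart. 4732471J01Rik was at 0.644, 0.725 and 0 RPKM in HuR RIP, against 0.148, 0.00588 and 0.0150 RPKM in IgG RIP.

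Of the genes next to the 6 in the genome, Rnu12, a small nuclear RNA gene beyond the 3′ end of Cyb5r3, was the 1 that passed the filter. Its level was 1830.3, 653 and 1272 RPKM in HuR RIP, against 1280.1, 164 and 523 RPKM in IgG RIP and 43.2 RPKM in Input (log2 fold change 1.26, limma adjusted p = 0.414). HuR RIP and IgG RIP overlapped for this gene. The protein-coding neighbours Pop1 (Rida), Adprm (Tmem220) and Isy1 (Cnbp) stayed below 1 RPKM in every library and reached 0.5 RPKM in fewer than 3 RIP libraries.

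Genes that work alongside the 6 gave 0 calls in either direction over 54 tested members of 5 lists by limma, while an unadjusted p under 0.05 was met by 21 that were higher (38.9%, against 27.9% of all tested genes) and 0 that were lower (against 3.19%). Without IgG RIP 1 the same fit called 11 of the 54 higher (20.4%, against 13.1% of all tested genes). That was the only setting with such calls: every other setting, also each other library left out, called 0 list members higher. The cytochrome b5 system, to which Cyb5r3 belongs, lay highest: all 12 tested genes were positive, against 79.1% of all genes. Its median log2 fold change was 1.98, against 0.92 for all genes. Of the 12, 9 were higher at an unadjusted p under 0.05, and 5 were called without IgG RIP 1, shares of 75% and 41.7% beside the 27.9% and 13.1% of all genes. Cyb5a, cytochrome b5 itself, was at 38.8, 8.83 and 24.2 RPKM in HuR RIP, against 6.89, 2.43 and 0.551 RPKM in IgG RIP and 3.77 RPKM in Input (log2 fold change 2.88, limma adjusted p = 0.0739). HuR RIP 2 was the lowest of the HuR libraries there and still above IgG RIP 1. Marc2, a molybdenum enzyme fed by this system, had a log2 fold change of 2.49 (limma adjusted p = 0.0737), and Msmo1, a sterol oxidase, 2.25 (limma adjusted p = 0.0815).

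Pyridoxal phosphate enzymes, whose reactive products Rida clears, had 17 of 19 tested genes positive (89.5%, against 79.1% of all genes) and a median log2 fold change of 1.20. Oat, ornithine aminotransferase, was at 6.66, 8.49 and 11.1 RPKM in HuR RIP, against 4.14, 1.48 and 0.338 RPKM in IgG RIP and 3.02 RPKM in Input (log2 fold change 2.20, limma adjusted p = 0.0981). Its groups did not overlap, as in 31.3% of all tested genes, and Oat was named for its small p in this contrast. Got2, the mitochondrial aspartate aminotransferase, had 1.87 (limma adjusted p = 0.107) and Cth, cystathionine gamma-lyase, 1.99 (limma adjusted p = 0.112).

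Genes of vitamin E and lipid handling had 9 of 12 tested genes positive, 75% against 79.1% of all genes, with a median of 0.99, close to that of all genes. Sec14l2, which encodes a tocopherol-associated lipid binding protein, was at 37.6, 46.7 and 20.1 RPKM in HuR RIP, against 9.64, 3.30 and 1.42 RPKM in IgG RIP and 3.88 RPKM in Input (log2 fold change 2.99, limma adjusted p = 0.0706). Every HuR library exceeded every IgG library, as in 31.3% of all tested genes, and Sec14l2 was named for its small p in this contrast. Sec14l4 had 2.07 (limma adjusted p = 0.105) and Abcb4, the canalicular phospholipid transporter, 1.83 (limma adjusted p = 0.108).

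The CEACAM and insulin clearance list had 5 tested genes, all positive, with a median of 1.24. Ide, the insulin-degrading enzyme, had a log2 fold change of 1.29 (limma adjusted p = 0.133), Shc1, an adaptor of insulin receptor signalling, 1.35 (limma adjusted p = 0.164) and Ptpn11, the phosphatase SHP2, 1.24 (limma adjusted p = 0.185). Among zinc knuckle and related RNA-binding genes, 5 of 6 tested were positive (83.3%), with a median of 0.96. Zcchc24 had 2.14 (limma adjusted p = 0.1002), Rbbp6 1.22 (limma adjusted p = 0.154) and Zcchc14 1.13 (limma adjusted p = 0.225). HuR RIP and IgG RIP did not overlap for Ide, Shc1, Ptpn11, Zcchc24 and Rbbp6, but overlapped for Zcchc14. All were named for the smallest p of their list in this contrast, and 31.3% of all tested genes did not overlap with HuR RIP higher. The lack of overlap is therefore no evidence about them. Ide, Shc1, Ptpn11, Rbbp6 and Zcchc14 passed the filter on low values only with the help of their HuR libraries. Fewer than 3 of their IgG libraries reached 0.5 RPKM. The same holds for Msmo1, Oat, Got2, Sec14l4 and Abcb4 of the other lists.

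The tested genes whose profile over the 6 RIP libraries and the Input mean was most like the mean profile of the 6 were Gnas (Pearson r 0.999), Cinp (0.997), Hook3 (0.996), Synj2bp (0.994) and Arfip1 (0.994), over 7 columns that share their libraries. Since the mean profile is itself a contrast of HuR RIP with the rest, these values describe likeness in that contrast. Synj2bp, which encodes an outer mitochondrial membrane protein, was at 2.29, 2.09 and 2.49 RPKM in HuR RIP, against 0.419, 0.0256 and 0.0296 RPKM in IgG RIP and 0.175 RPKM in Input. Its last block held 98.3% of its signal in HuR RIP, as in the 6 genes, whereas that of Cinp held 34.7%. The single genes most like each member were Synj2bp (Rida), Dpyd (Cyb5r3), Nedd4 (Ttpa), Cdv3 (Ceacam1), Tmem106a (Tmem220) and Sgta (Cnbp). Among the 6, the least alike pair was Cnbp and Cyb5r3 (Pearson r 0.767 over the same 7 columns), where IgG RIP 3 was near 0 for Cnbp and the highest control for Cyb5r3.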

How the data were processed

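The 3 HuR RIP, 3 IgG RIP and 3 Input libraries were made with an Ion kit for total RNA, per the labels' protocols. Bowtie2, featureCounts and mm10 are named in the submitters' processing notes, and versions were not stated. The authors deposited RPKM per exon for each RIP library, the Input mean, and log2 ratios of each library (RPKM plus 1) over Input. Decimal marks were missing from values of at least 1, which were restored from their digits with the deposited log2 ratios: all 138826 distinct lines matched in all 6 ratios, and 1 had more than 1 reading. Ratio columns of HuR 2 and 3 are exchanged relative to the RPKM column names, which were followed.

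Reads over several listed exons were split between them, so RPKM times length was summed per gene and divided by merged exon length. Library sizes came from the step between values; 84.9% to 89.0% of gene sums were whole reads within 0.05. The contrast of HuR RIP with IgG RIP was fitted in limma 3.58.1 (R 4.3.3, trend and robust) on log2(RPKM + 0.5), keeping genes at 0.5 RPKM or more in at least 3 of 6 RIP libraries, with two-sided Benjamini-Hochberg adjusted p-values and a threshold of 0.05, after a test on simulated data. No count model was run. P-values measure the spread between the 3 libraries of a group, in which liver, pull-down and library cannot be told apart. If same-numbered libraries shared a liver, the unpaired fit left that pairing out. The members and lists were chosen with earlier results of these data known. Named genes were the 6 members, their neighbours, the genes most like them, and per list any gene past the threshold or else the 3 smallest p. Positions and transcripts are GENCODE M21 (GRCm38), like sequences were found with blastn 2.17.0 (e-value 1e-20), and other steps used Python 3.11.15. Alternatives were other pseudocounts and filters, centring, a replicate block and leaving out each library.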

Additional observations from a re-analysis of the deposited data

How the results depend on the processing

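Against IgG RIP, limma called 37 genes higher and 7 lower in HuR RIP, and these counts depended on the settings. They were 3 and 1 with a pseudocount of 1, 145 and 21 with a filter at 1 RPKM, and 1 and 18 with libraries centred at their medians. Without a filter they were 0 and 0 (1192 and 101 at an unadjusted p under 0.05, of 28263 genes). With a pseudocount of 0.1 they were 37 and 5. Leaving out 1 library gave between 0 and 724 higher and between 0 and 35 lower: 15 and 5 without HuR RIP 1, 90 and 13 without HuR RIP 2, 72 and 15 without HuR RIP 3, 724 and 17 without IgG RIP 1, 0 and 0 without IgG RIP 2 (803 and 218 at an unadjusted p under 0.05), and 41 and 35 without IgG RIP 3. With the replicate block limma called 0 and 0 (1665 and 238 at an unadjusted p under 0.05). Replicate numbers were not taken as pairs, since deviations of same-numbered libraries correlated at 0.138, 0.117 and 0.0860, not all above 0.1, although each HuR library correlated best with its own number. The cause of these changes was not tested.

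The median log2 difference of the 6 genes between HuR RIP and IgG RIP was 3.38. It was 4.45 with a pseudocount of 0.1, 2.85 with a pseudocount of 1 and 2.28 under centring, where the median of all genes fell to -0.18, and 3.13 to 3.76 when 1 library was left out. No member changed direction in these settings, with values from 2.21 (Ttpa) to 5.28 (Rida). Of the 6, 3 were called with a pseudocount of 0.1, 1 with a pseudocount of 1, 1 (Rida) under centring, 6 with a filter at 1 RPKM, and 0 with the replicate block or without a filter. Over the Input mean, the median of the 6 was 3.19, and it was 4.06 and 2.68 with pseudocounts of 0.1 and 1, and 2.98 to 3.51 with 1 HuR library left out. The median last-exon share in HuR RIP was 98.0% and stayed at 97.7% with distinct exons alone, and at 98.0% to 99.1% with 1 HuR library left out, an alternative chosen after seeing the data. The Input depth is unknown, and few IgG reads limit shares and ratios in the controls.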
